A study of Drosophila melanogaster with 2 samples.

Results

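The genes described here encode the proteins of the mitochondrial ribosome of Drosophila melanogaster. They were taken as all protein-coding genes of the Ensembl BDGP6 annotation whose symbol begins with mRpL (large subunit) or mRpS (small subunit), which gave 73 of 13968 protein-coding genes, 47 of the large and 26 of the small subunit. Their binding by Irbp18 was read from chromatin immunoprecipitation followed by sequencing (ChIP-seq) in whole embryos collected over the first 0 to 24 h of development. The flies carried a transgene for Irbp18 (CG6272) fused to enhanced GFP, and chromatin bound by the fusion was recovered through the GFP tag. There were 2 biological replicates of this 1 group, with no second condition and no control library analysed here. All cell types of the embryo were pooled, and peak lists hold no marker expression by which the tissue could be checked. A site is a peak of the conservative pooled list that the authors made from both replicates, and a gene is said to have a site where the peak's summit lay within 500 bp of any annotated start of the gene. Of the 3426 sites on the chromosome arms, 25 lay at these genes.

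Mitochondrial ribosomes translate the few messages encoded by mitochondrial DNA, which specify core subunits of the respiratory chain and of the ATP synthase. All their proteins are encoded in the nucleus, made in the cytosol and imported, so that supply of the large and small subunits depends on many scattered nuclear promoters. Irbp18 is a basic leucine zipper protein of the C/EBP type that dimerises with Xrp1 and with crc, the fly ATF4, and these partners act in responses to ribosomal, nutrient and mitochondrial stress.

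The sequences under the strongest sites are shown first. The factor's textbook binding words, which were rare over all sites at protein-coding starts, were not found in them. Each run covers 50 bp on either side of a summit (dm6, from the RefSeq release 6 genome) and is written 5' to 3' on the strand of the mitochondrial ribosomal protein gene. These are 6 of the 8 genes with the highest signal values. Letters would be in capitals where 1 of 10 motifs matched, and none did. All 6 are rich in A and T.
mRpS23, chr2L:13835411-13835511, minus strand: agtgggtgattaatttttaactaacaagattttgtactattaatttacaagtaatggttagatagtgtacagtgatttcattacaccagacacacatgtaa
mRpS10, chr3R:15229480-15229580, plus strand: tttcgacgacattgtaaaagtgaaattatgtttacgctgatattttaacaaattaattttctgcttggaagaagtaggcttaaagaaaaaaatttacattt
mRpL23, chr3L:2373575-2373675, minus strand: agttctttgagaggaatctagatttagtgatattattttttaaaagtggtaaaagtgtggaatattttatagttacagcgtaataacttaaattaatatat
mRpL20, chr3L:13018110-13018210, minus strand: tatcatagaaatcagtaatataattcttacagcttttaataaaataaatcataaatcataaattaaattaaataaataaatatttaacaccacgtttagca
mRpS2, chr2L:4850516-4850616, minus strand: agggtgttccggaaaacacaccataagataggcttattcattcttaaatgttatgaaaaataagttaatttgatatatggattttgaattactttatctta
mRpL24, chr2L:4945473-4945573, minus strand: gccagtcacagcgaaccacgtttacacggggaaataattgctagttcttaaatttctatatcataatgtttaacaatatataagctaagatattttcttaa

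Matches to the 10 motifs, searched on both strands, were found near 4 of the 25 summits, so 84.0% of the sites had none, against 84.1% of the 1810 sites at protein-coding starts. The motifs were the DRE, the word of the promoter factor Dref (TATCGATA), the composite C/EBP and ATF site CARE (TGATGCAA or TGATGTAA), the C/EBP palindrome (TTGCGCAA), the CRE (TGACGTCA), the E-box (CACGTG), the core of promoter Motif 1 (GGTCACAC), promoter Motif 7 (CATCNCTA), the GAGA word (GAGAGAG), an NRF-1 like word (GCGCANGC) and an Ets word (CCGGAAG). The 3 sites with a match that can be shown follow, with the matched letters in capitals. They are the E-box at mRpL16, the DRE at mRpS18B, and at mRpL33 an NRF-1 like word and a CARE that overlaps a Motif 7 match on the other strand.
mRpL16, chrX:1890071-1890171, plus strand: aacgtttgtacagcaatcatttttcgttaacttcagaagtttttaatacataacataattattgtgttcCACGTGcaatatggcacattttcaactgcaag
mRpS18B, chr2L:20097246-20097346, minus strand: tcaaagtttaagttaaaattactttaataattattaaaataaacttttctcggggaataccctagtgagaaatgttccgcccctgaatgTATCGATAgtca
mRpL33, chrX:4322522-4322622, minus strand: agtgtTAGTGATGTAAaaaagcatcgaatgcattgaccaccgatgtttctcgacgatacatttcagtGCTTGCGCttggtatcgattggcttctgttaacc

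The fourth match was a DRE centred 0.5 bp from the summit at mRpS29. Near the summits the DRE was thus present at 2 of 25 sites (8.0%, exact 95% interval 0.984 to 26.0), against 6.52% of all sites at protein-coding starts. The CARE was at 1 of 25 (4.0%, 0.101 to 20.4) against 0.387%, and rests on the mRpL33 site alone. Neither replicate's own peak list held that site, and its summit lay nearer to the norpA start (54 against 341 bp). The E-box, Motif 7 and the NRF-1 like word were each at 1 of 25 (4.0%), against 1.27%, 5.19% and 0.939%. The C/EBP palindrome, the CRE, the Motif 1 core, the GAGA word and the Ets word were at none of the 25, which allows a share of up to 13.7%. Over all sites at protein-coding starts these 5 were also rare, at 0.166%, 0.166%, 1.71%, 0.773% and 0.442%. A match is a description of letters, and a window without one says nothing about whether the factor was bound there.

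Of the 73 genes, 23 (31.5%, exact 95% interval 21.1 to 43.4) had a site, where 16.8% of all protein-coding genes did. They were 16 of 47 large subunit genes (34.0%, 20.9 to 49.3) and 7 of 26 small subunit genes (26.9%, 11.6 to 47.8), with intervals that overlap widely. Grouped by the naming of the human proteins, 15 of 46 genes of families shared with bacterial ribosomes had a site (32.6%) and 8 of 27 of families found in mitochondria (29.6%). By arm the counts were 5 of 12 genes on 2L, 4 of 12 on 2R, 6 of 17 on 3L, 6 of 21 on 3R and 2 of 11 on X. Over all protein-coding genes the shares on these arms were 16%, 15.3%, 17%, 19.1% and 16.6%, in that order. With so few genes per arm the intervals were wide, as on X (2.28 to 51.8%). The data hold 1 group of samples, so no test between groups was possible, and the intervals cover counting error over genes or sites only.

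Sites were more frequent at promoters that face another gene, and most of the 73 genes have such a promoter. Among the 73 genes, 53 (72.6%, 60.9 to 82.4) had the start of another protein-coding gene lying head-to-head, on the opposite strand and upstream within 500 bp, against 3815 of 13968 protein-coding genes (27.3%, 26.6 to 28.1). Of the 53, 19 had a site (35.8%, 23.1 to 50.2), and of all head-to-head genes 34.6% did. Of the other 20 genes, 4 had a site (20%, 5.73 to 43.7), against 10.1% of all other protein-coding genes. Within each arrangement the interval for the mitochondrial ribosomal protein genes thus held the share of all genes. With 53 and 20 genes these intervals are wide and cannot show that the shares are equal. Both genes of a head-to-head arrangement are counted for a shared site, here and in the background.

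The gap between the facing starts was wider, in the median, at genes with a site. The 19 head-to-head genes with a site had a median gap of 291 bp (24 to 492) and the 34 without had 131 bp (20 to 499). With a gap of at most 200 bp, 2 of 22 genes had a site, mRpL23 and mRpL47 (9.09%, 1.12 to 29.2), against 26.6% of all such genes. With a gap of more than 200 and up to 500 bp, 17 of 31 had one (54.8%, 36 to 72.7), against 39.9%. These bins were chosen after earlier results were known, and no test was made of them.

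**Figure D1:**
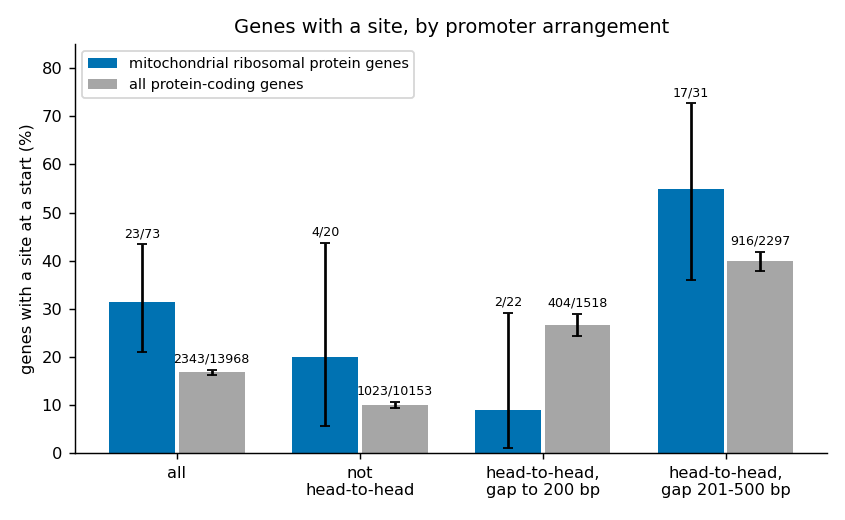
Share of genes with a site at a start (percent, axis from 0), for the 73 mitochondrial ribosomal protein genes and all protein-coding genes, overall and by promoter arrangement, with exact 95% intervals as error bars and counts above the bars. Overall the shares were 31.5% and 16.8%, and each interval for the 73 genes split by arrangement included the share of all genes. The split intervals are wide and cannot show equal shares.

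Most sites could not be given to the mitochondrial ribosomal protein gene alone. Of the 25 sites, 21 (84.0%, 63.9 to 95.5) also lay within 500 bp of another protein-coding start, against 40.8% of the 1810 sites at protein-coding starts. In 14 of these 21 the neighbour's start was nearer to the summit. The median distance was 155 bp to the mitochondrial ribosomal protein gene and 108 bp to the neighbour. Given only to the nearest protein-coding start, sites fell to 11 of the 73 genes (15.1%, 7.77 to 25.4), where 11.9% of all protein-coding genes had one by that rule.

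Summits lay mostly in the space between the facing starts. In 19 of the 21 shared sites the summit was upstream of both starts, and 22 of the 25 summits lay between genes. The other summits were in the 5' UTRs of mRpL23, mRpS29 and the neighbour rept. Relative to the mitochondrial ribosomal protein gene, 23 of 25 were upstream (92.0%, 74.0 to 99.0), at a median of 135 bp, and 18 lay within 200 bp. A summit between facing starts is upstream of both by definition. The matching shares over all sites at protein-coding starts are not given here, so these positions describe the 25 sites only. Taking the nearest site of each bound gene, the farthest summit was that of mRpS23, at 389 bp, while the second mRpL21 summit lay at 415 bp. The nearest gene beyond the 500 bp limit was mRpL27, 1229 bp from a site.

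**Figure D2:**
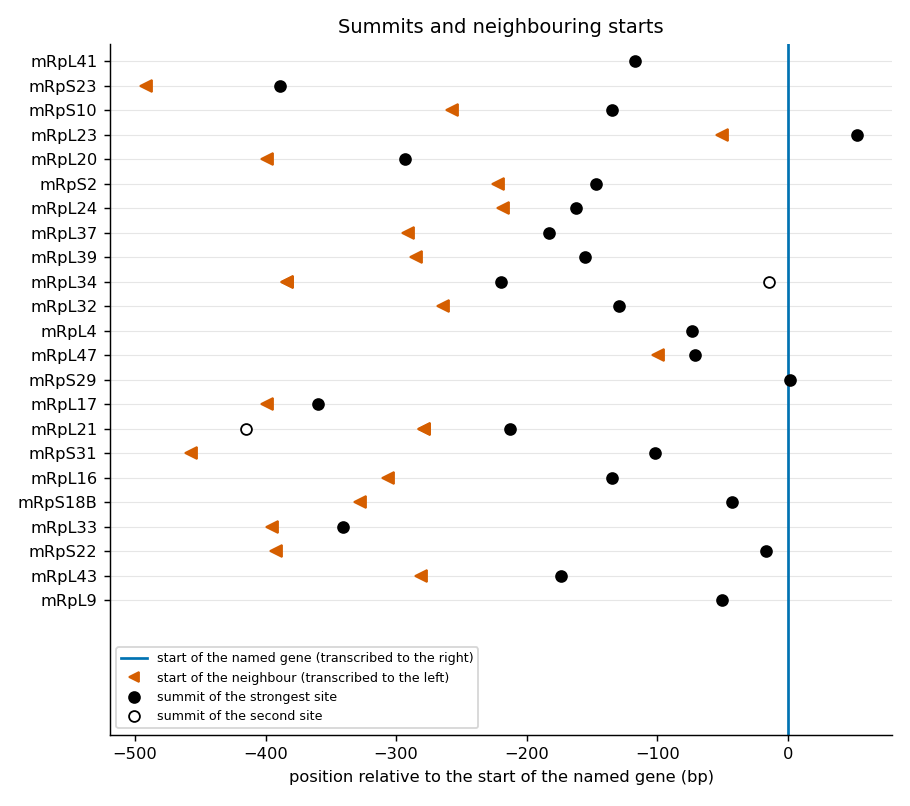
Position in bp of each summit (circles) and of the nearest neighbouring protein-coding start (triangles) relative to the start of the 23 bound genes (vertical line), ordered by signal value. Summits lie upstream of the named gene at 23 of 25 sites, and triangles are missing for mRpL41, mRpL4, mRpS29 and mRpL9, which have no other protein-coding start in reach.

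The 8 genes with the highest signal value, the authors' own measure of peak height in a scaling that the labels and headers leave unstated, ranged from 2639 to 271. The mRpL41 site (chr2R:15217568-15217944) had 2639 in the pooled list, 1599 in replicate 1 and 1057 in replicate 2. It ranked 3 among the 3426 sites. Its summit lay 117 bp upstream of the start, with no other protein-coding start in reach and a noncoding RNA start, lncRNA:CR44463, as the other annotated start. mRpL41 (FBgn0034001, chr2R:15217024-15217617, minus strand) is a large subunit protein of a family found in mitochondria.

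The next 3 sites had lower and nearly equal signal values, ranked 15 to 17. At mRpS23 (FBgn0260407), of the small subunit, the site at chr2L:13835319-13835621 had 1392 in the pooled list, with 813 and 580 in replicates 1 and 2. Its summit was 389 bp from mRpS23 and 103 bp from CenG1A, whose product is an Arf GTPase-activating protein. At mRpS10 (FBgn0038307), whose bacterial counterpart sits in the head of the small subunit, the site at chr3R:15229381-15229686 had 1390, with 763 and 643 in the replicates. That summit lay almost midway, 135 bp from mRpS10 and 122 bp from the arginine methyltransferase gene Art3. At mRpL23 (FBgn0035335), whose bacterial counterpart lines the mouth of the peptide exit tunnel, the site at chr3L:2373446-2373769 had 1372, with 790 and 577. It was the only one of the 8 with its summit downstream of the start, by 53 bp, and it lay 103 bp upstream of CG9004.

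The other 4 of these genes had lower signal values. The mRpL20 site (FBgn0036335; chr3L:13018011-13018282) had 693, with 412 and 277 in replicates 1 and 2, and lay 293 bp from mRpL20 and 106 bp from Icmt, which encodes a methyltransferase of prenylated proteins. The mRpS2 site (FBgn0031639; chr2L:4850431-4850680) had 464, with 245 and 220, and lay 147 bp from mRpS2 and 75 bp from Mon1, a gene of endosome maturation. Both had their summit nearer to the partner. The mRpL24 site (FBgn0031651; chr2L:4945394-4945588) had 373, with 248 and 129, and lay 162 bp from mRpL24 and 56 bp from betaggt-I, which encodes a subunit of a protein prenyltransferase. The mRpL37 site (FBgn0261380; chr3R:10784264-10784353) had 271, with 186 and 97.9, and lay 183 bp from mRpL37. At all 8 genes replicate 1 gave the larger value, and at all 8 each replicate list held the site.

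The remaining large subunit genes with a site were led by mRpL39 (252), mRpL34 (222) and mRpL32 (208), with the pooled signal value in parentheses. Their neighbours are Prosbeta2, a catalytic subunit gene of the proteasome, Dg, the dystroglycan gene, and qless, which serves ubiquinone synthesis. Next came mRpL4 (178), mRpL47 (178), mRpL17 (157), mRpL21 (122), mRpL16 (111), mRpL33 (99.6), mRpL43 (73.5) and mRpL9 (69.8). Among the neighbours of these, CG8176 was nearest at mRpL47, with Kdm3 also in reach, Tudor-SN at mRpL17, rept (the Reptin ATPase gene) at mRpL21, trr (a histone H3 lysine methyltransferase gene) at mRpL16, norpA (the phospholipase C gene of phototransduction) at mRpL33 and CG30183 at mRpL43. mRpL4, whose bacterial counterpart reaches into the exit tunnel, and mRpL9 had no other protein-coding start in reach.

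Beyond mRpS23, mRpS10 and mRpS2, the small subunit genes with a site were mRpS29 (158), mRpS31 (121), mRpS18B (109) and mRpS22 (75.1). mRpS29 is the fly counterpart of human DAP3, a GTP-binding protein of the small subunit, and its summit lay 2 bp downstream of the start with no other protein-coding start in reach. The neighbours were hzg at mRpS31, Kua at mRpS18B and CG5003 at mRpS22. In these 3 the mitochondrial ribosomal protein gene was the nearer one, by 102 against 355 bp, 43 against 285 bp and 17 against 375 bp.

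A second, overlapping peak lay at 2 of the genes. At mRpL21 the second site had a signal value of 19.3 and an IDR of 0.00143, and at mRpL34 8.43 and 0.00152. The IDR, the irreproducible discovery rate, measures how poorly a peak recurs between sets, and every listed peak was at most 0.01. These 2 pooled signal values are the lowest among the 25 sites, and neither replicate list held these sites. The candidate of replicate 1 near the second mRpL34 site had 51.7, above the pooled value.

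Across the 25 sites the median signal value was 178 (quartiles 109 and 373), against 132 (93.7 and 224) over all sites at protein-coding starts. Over the 19 head-to-head genes with a site the median of the best value was 208, against 161 over all 1320 bound head-to-head genes. Large subunit sites had a median of 178 (n = 18) and small subunit sites 158 (n = 7). Of the 20 strongest sites 4 were at mitochondrial ribosomal protein genes, of the 100 strongest 5, and of the 500 strongest 8. Of all 3426 sites, 25 were. Below the leading 4 there was thus only mRpL20 down to rank 100.

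**Figure D3:**
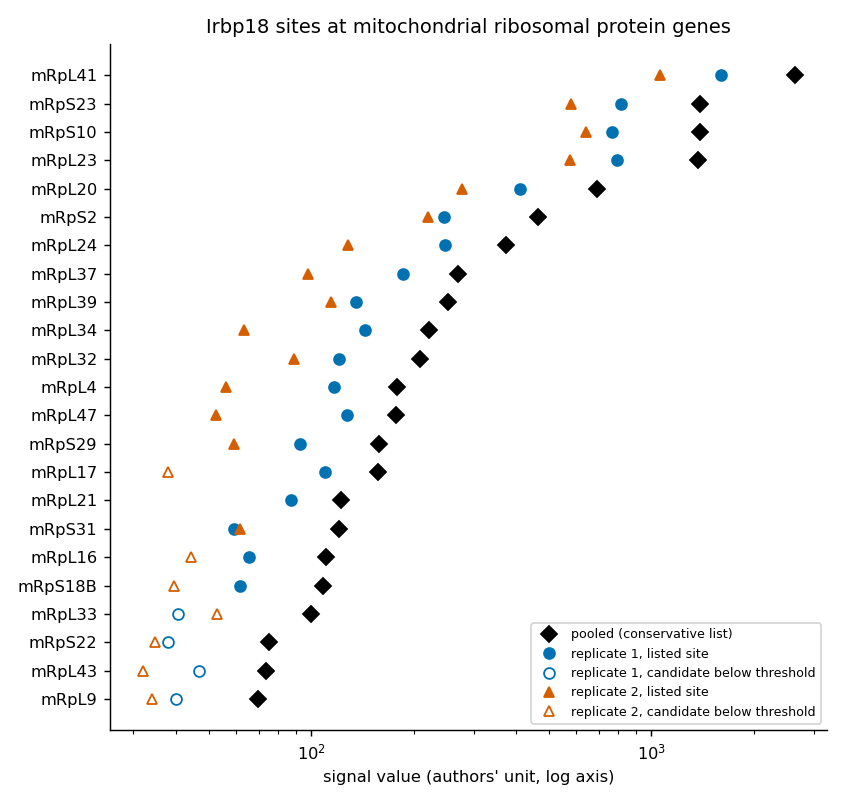
Signal value of the strongest site at each of the 23 bound genes (authors' unit, log axis) in the pooled list, replicate 1 and replicate 2, with open symbols where the replicate held only a candidate that missed its threshold. Values run from 2639 at mRpL41 to 69.8 at mRpL9, and replicate 1 lies above replicate 2 at most genes. The order of the genes is similar in both replicates, which the cut of the pooled list by recurrence partly fixed.

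The stronger sites were mostly listed in both replicates, and most of the weaker ones in replicate 1 only or in neither. Of the 25 sites, 15 (60.0%, 38.7 to 78.9) lay within 100 bp of a listed site of both replicates, against 51.3% of all sites at protein-coding starts. A further 4 matched replicate 1 only (mRpL17, mRpL21, mRpL16 and mRpS18B), none matched replicate 2 only, and 6 matched neither. The 6 were the second sites of mRpL21 and mRpL34 and those of mRpL33, mRpS22, mRpL43 and mRpL9. With candidates below the replicate thresholds included, 22 sites had a value in both, and 20 of these were larger in replicate 1. The ratio of replicate 1 to replicate 2 had a median of 1.47 (0.768 to 2.88), against 1.42 over all sites at protein-coding starts. The scaling of either list is unstated, so this ratio is not a difference in binding. Across these 22 sites of the same 2 libraries, Spearman's rho was 0.91 and Pearson's r on the log10 scale 0.96, as a description. The pooled list was itself cut by how well peaks recur, so such agreement was partly fixed by the choice of sites. The list of replicate 1 alone gave 24 genes with a site (32.9%, against 15.4% of all genes), and that of replicate 2 alone gave 16 (21.9% against 11.0%).

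The strongest sites had a lower share of G and C in the median, though some weaker sites were as low. Within 50 bp of the summit G and C made up 25.7% in the median (16.8 to 30.7) at the 8 sites with the highest signal value and 41.6% (16.8 to 51.5) at the other 17. Over all sites at protein-coding starts the strongest 453 had a median of 29.7% and the weakest 453 had 44.6%. Spearman's rho between G and C share and signal value was -0.68 over the 25 sites and -0.44 over the 1810, as descriptions over sites of the same libraries. The 25 include the second, overlapping peaks at mRpL21 and mRpL34. These had the lowest signal values of the 25 and G and C shares of 45.5% and 48.5%. How base composition bears on the signal value was not tested.

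**Figure D4:**
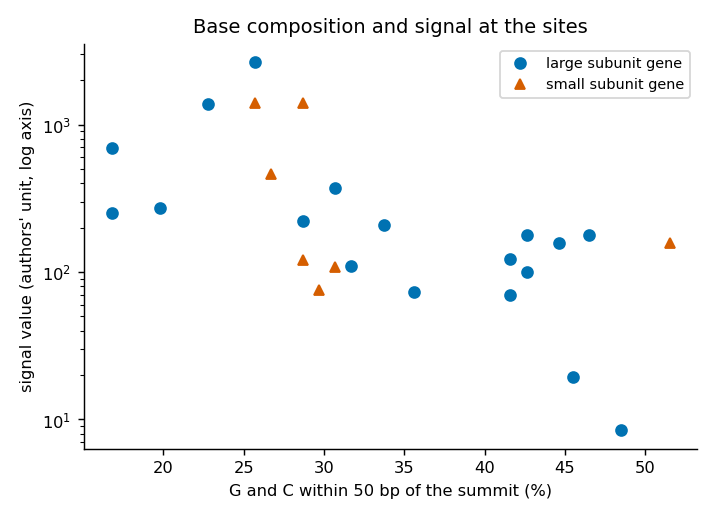
Share of G and C within 50 bp of the summit (percent) against signal value (authors' unit, log axis) for the 25 sites, by subunit. The 8 sites with the highest signal value lie between 16.8 and 30.7% G and C.

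The promoters themselves, taken as 250 bases before to 50 after the canonical start of each gene, were searched for the same words. A DRE was in 15 of 73 promoters (20.5%), against 8.94% of all protein-coding promoters and 16.8% of head-to-head ones. It was in 9 of the 23 with a site, those of mRpL4, mRpL16, mRpL17, mRpL20, mRpL32, mRpL39, mRpS18B, mRpS23 and mRpS29 (39.1%), and in 6 of the 50 without, those of mRpL3, mRpL10, mRpL12, mRpL19, mRpL22 and mRpS25 (12%). Over all protein-coding genes the shares were 15.9% with and 7.54% without a site, and over head-to-head genes 20.2% and 15.0%. The Motif 1 core was in none of the 23 and in 8 of the 50 (16.0%), where head-to-head genes had 11.5% with a site and 15.8% without. Over all protein-coding genes the order was the other way, 10.2% with a site and 6.99% without. Motif 7 was in 3 of 23 (13.0%) and 5 of 50 (10%), against 15.4% and 4.47% over all genes and 19.2% and 8.1% over head-to-head genes. Among the other words, the CARE was in 3 of the 73 promoters (4.11%), against 1.52% of all promoters, and the E-box in 5 (6.85%), against 4.25%. The NRF-1 like word was in 5 (6.85%), against 3.58%, and the GAGA word in 1 (1.37%), against 6.19%. The C/EBP palindrome, the CRE and the Ets word were in none of the 73, against 0.379%, 0.422% and 1.08% of all promoters. The Motif 1 core and Motif 7 were in 7.52% and 6.31% of all promoters.

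The other 50 genes had no site, among them mRpL10, mRpL11 and mRpL12, whose bacterial counterparts form the stalk and its base where translation factors bind, and mRpL2 and mRpL3, whose counterparts lie near the peptidyl transferase centre. Of the 50, 43 had a candidate at a start in the longer ranked list that missed the IDR threshold, with a median IDR of 0.491 and a median signal value of 36.5. Each gene was described by its candidate of lowest IDR, which need not have the highest signal value. In the signal value of that candidate 7 of the 43 exceeded mRpL9, the bound gene with the lowest value (69.8). They were mRpL11 (91.7), mRpS21 (91.5), mRpS16 (85.1), mRpL18 (75.8), mRpS26 (75.02), mRpS24 (74.6) and mRpL42 (70.3), so genes with and without a site overlapped in signal value. The 6 with the lowest IDR were mRpS7 (0.0165), mRpS24 (0.0372), mRpS6 (0.05), mRpL51 (0.0698), mRpL28 (0.0717) and mRpL35 (0.0825). The first 3 would pass a limit of 0.05. With that limit 26 of the 73 genes (35.6%) had a site, against 21.1% of all protein-coding genes. mRpS7 had a pooled signal value of 69.6, with 52.8 and 27.2 at its best candidates in replicates 1 and 2. Partners of these 6 include the cell cycle kinase gene Cdk1 at mRpS7, Apc2 at mRpS24 and Mitofilin at mRpL35. The 7 genes with no candidate in this pooled ranked list were mRpL3, mRpL10, mRpL49, mRpL53, mRpS5, mRpS11 and mRpS30. All of these but mRpL49 had a candidate in a replicate's own ranked list, up to 60.2 at mRpL53 in replicate 1. The ranked list held 129716 candidates. The share of all protein-coding genes with a candidate is not given here, so the 43 and the 7 describe these genes only.

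**Figure D5:**
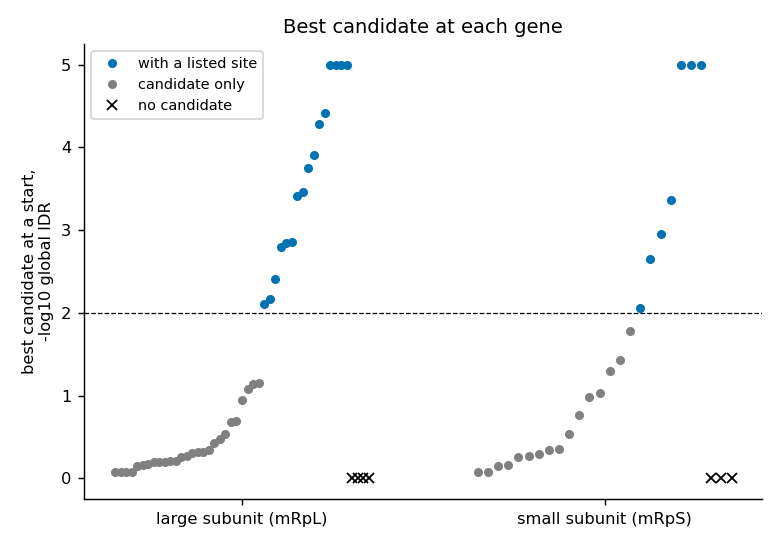
Best candidate within 500 bp of a start of each of the 73 genes, as -log10 of its global IDR (highest value 5), by subunit and ordered within it, with the IDR of 0.01 as a dashed line. The 23 genes with a listed site lie above the line, 43 lie below it, and 7 had no candidate in the pooled ranked list (crosses at 0).

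Other genes of mitochondrial gene expression were described by lists beside the 73. The mitochondrial ribosomal protein gene tko, named outside the mRp scheme, had a site (114) and bonsai had none. Of 19 genes for mitochondrial tRNA synthetases and the amidotransferase, 3 had a site (15.8%, 3.38 to 39.6), GatA (159), ProRS-m (127) and AspRS-m (76.7). Of 8 mitochondrial translation factor genes, mRF1, a release factor gene, had one (109). Of 19 genes for the upkeep and expression of mitochondrial DNA, 6 had a site (31.6%, 12.6 to 56.6), with the protease gene Lon (750), SLIRP2 (730) and the termination factor gene mTerf5 (142) highest. Each of these shares has an interval that includes the 16.8% of all protein-coding genes.

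The larger lists were arranged differently. Cytosolic ribosomal protein genes, taken as 93 symbols of the RpL and RpS kind with paralogues and related genes included, had sites at 51 (54.8%, 44.2 to 65.2), led by RpL32 (505), RpL34b (427) and RpL7 (424). There 37 genes (39.8%) were head-to-head, and 23 of these 37 and 28 of the other 56 had a site. Of 84 oxidative phosphorylation genes, 16 had a site (19.0%, 11.3 to 29.1), led by ND-MWFE (428), ND-24 (336) and ND-ASHI (290). There 39 (46.4%) were head-to-head, and 15 of these 39 but 1 of the other 45 had a site. No test was made of a difference between these lists and the mitochondrial ribosomal protein genes.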

How the data were processed

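ChIP-seq peaks of GFP-tagged Irbp18 were available for 2 biological replicates of 1 group of whole embryos, on the dm6 assembly per the labels. The authors deposited peak lists: per replicate and pooled over both, once cut at a threshold and once as all ranked candidates. The aligner and the peak caller are both not named in the sources used here. Replicate 1 had 2773 peaks and replicate 2 had 2023. Sequencing depth is unknown, since the lists hold no read counts, and the number of peaks limits the precision. The deposited signal value is each peak's height in the authors' own scaling, and was used to describe and rank peaks within a list. The deposited score is a whole number with a ceiling of 1000. The ranked lists deposited by the authors give the global IDR as its -log10. The ranked list that belongs to the conservative list was identified as the one that holds all its 3454 rows.

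Summits were compared with transcript starts of Ensembl release 115 (BDGP6.54), without pseudogenes and transposable elements. Head-to-head means another protein-coding start on the opposite strand, at or upstream of a start, within 500 bp. Motifs were matched by exact letters in the RefSeq release 6 sequence. Intervals are exact Clopper-Pearson 95% intervals and cover counting error only. No test was made: there is 1 group, and sites and genes are not replicates of a condition. All bound genes were named, 8 in detail, with the 6 unbound genes of lowest IDR and up to 3 genes per related list. The neighbour and the sequence at the mRpL37 site are not reported here. Symbols not in the annotation were left out unless the RefSeq table gave exactly 1 current symbol. Site assignment and motif matching were tested on placed positions. The genes, lists and rules were chosen with earlier results of these data known. Python 3.11.15, pandas 2.3.3, numpy 2.4.6, scipy 1.17.1 and matplotlib 3.10.9 were used.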

Additional observations from a re-analysis of the deposited data

How the results depend on the processing

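Of 61 recomputed counts and shares, 56 stayed within 1.5 times the reported count or within the interval of the reported share. The 5 others were these. When a site counted for the nearest protein-coding start alone, 11 genes had a site, at 11 sites, of which 8 had another gene's start in reach. In this section such starts include those of noncoding genes, and the main setting had 22 such sites. With a distance of 200 bp, 10 sites had another gene's start in reach, a count that the shorter reach itself lowers. With the list of replicate 2 alone, 1538 protein-coding genes had a site. Leaving out each replicate in turn gave 16 to 24 mitochondrial ribosomal protein genes, 17 to 24 sites, 15 to 22 sites with another start in reach, 1538 to 2153 protein-coding genes, 88.2 to 95.8% of summits upstream and 8.33 to 11.8% of sites with a DRE. The 24 genes of replicate 1 alone held 19 of the 23 and added mRpL11, mRpL18, mRpL35, mRpL53 and mRpS21, and the 16 of replicate 2 alone held 15 and added mRpS16. Of the 23 genes, 7 had a site under all 10 alternatives (mRpL4, mRpL23, mRpL32, mRpL34, mRpL41, mRpS29 and mRpS31), and mRpL33 under 5, the fewest. mRpL34 met the 200 bp and nearest-start rules only through its second site (signal value 8.43), which neither replicate list held. The other pooled list added mRpL11, mRpL53, mRpS7, mRpS16, mRpS21 and mRpS26 and lost mRpL9. No paired analysis was possible because there is 1 group. Unknown depth, and a control library not analysed here, limit any reading of a gene without a site.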
